A study of Arabidopsis thaliana with 8 samples.

Results

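The interaction of genotype and drought was measured in rosette leaves of Arabidopsis thaliana as the drought response of the dor mutant minus the drought response of wild type. All 8 arrays of the series entered it, 2 in each of 4 groups. The groups were dor plants under drought, dor plants with water, wild type plants under drought and wild type plants with water. The dor plants carried the SALK T-DNA insertion Salk-050074 in the Columbia background, a single insertion line that the labels also call S29, and the wild type was Columbia. Drought plants had 24 days of watering followed by 10 days with no irrigation, and control plants were watered for 34 days, so that all plants were of 1 age at harvest. All grew in soil at 22 °C with 16 h of light and 8 h of dark. The labels number the arrays of each group as biological replicates 1 and 2 but do not say what separates them, so the p-values below measure only the spread between these arrays. Leaf RNA was labelled and hybridised to Affymetrix ATH1 arrays, which read each transcript with 1 or more probe sets.

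DOR encodes an F-box protein, a class of proteins that select targets for ubiquitination, and dor mutants are known for tolerating drought and for stomata that are more sensitive to abscisic acid. Abscisic acid (ABA) accumulates in drying leaves, closes the stomata and switches on genes for protective proteins such as dehydrins and other late embryogenesis abundant (LEA) proteins. Genes of photosynthesis and of cell wall loosening are commonly lowered as growth slows. A gene that responds alike in both genotypes has an interaction near 0, even where its drought response is large.

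Each response is a difference of log2 signals, drought minus control, and the interaction is the dor response minus the wild type response, so that a positive value means a more positive response in dor. A value of 1 stands for a 2-fold difference between the responses. Within each replicate number the interaction was also taken from its own 4 arrays, which gives 2 estimates that share no array. In RNA from whole leaves, fewer cells of a type and less RNA per cell cannot be told apart.

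Of 22810 probe sets, 15523 were tested, those that reached the 40th percentile of the array on at least 2 arrays. Median signals ran from 97.3 to 120 in replicate 1 and from 163 to 171 in replicate 2. The interaction of the median signal was small, at -0.12 in replicate 1 and 0.02 in replicate 2. Ratios of 5′ to 3′ signal, which read RNA integrity and labelling, had interactions of -0.53 and -0.24 for GAPDH and of 0.07 and -0.59 for ubiquitin in replicates 1 and 2. The 2 actin probe pairs disagreed, with -1.23 and 0.72 for one pair and -0.17 and 0.27 for the other. The RNA extraction is worded alike for both arrays of a genotype and replicate number, so a constant difference between extractions cancels within each response. In replicate 1 the wording names RNAplant and RNeasy for dor and RNeasy only for wild type, and in replicate 2 the reverse. An extraction effect that differed between drought and control would not cancel, and within a replicate it cannot be told apart from the interaction. RCA, which encodes Rubisco activase and was the 1 leaf marker with a tested probe set, read from 9383 to 36420. PYK10, which encodes a root glucosidase and was the 1 tested marker of roots, seeds and flowers, read from 8.3 to 192. DOR itself (AT2G31470) read 2.3 to 21.4, under the 40th percentile of all 8 arrays, so it was not tested and does not check the genotype labels.

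No gene passed the test for a different drought response in dor. limma, fitted across the tested probe sets with 4 residual degrees of freedom and Benjamini-Hochberg adjustment, gave 0 higher (0%) and 0 lower (0%) at an adjusted p under 0.05. At an unadjusted p under 0.05 it gave 185 probe sets, 1.19% of those tested, of which 79 were higher in dor (0.509%) and 106 lower (0.683%). The smallest adjusted p was 0.999992, and this bound holds for every gene named below. The other 20 settings also gave 0 calls. The 1.19% lies under the share of 0.05 expected where no response differs. With replicate number as a block within condition limma gave 5.70%, or 6.95% with a random block. Whether replicate numbers pair the samples is not in the labels.

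The interactions of both replicates had little in common across the transcriptome. Over all tested probe sets, which are not independent of each other, the interaction of replicate 1 correlated with that of replicate 2 at r = 0.051 (Spearman's rho 0.045), and 51.2% of probe sets had the same sign in both. The drought response averaged over the genotypes correlated at r = 0.499 between the same replicates, with 67.4% of the same sign. The dor response alone correlated at r = 0.494 between replicates and the wild type response at r = 0.290. The standard deviation of the interaction over probe sets was 1.59 in replicate 1 and 1.38 in replicate 2. For comparison, the responses had standard deviations of 2.31 in dor and 1.89 in wild type in replicate 1, and of 1.30 in dor and 1.29 in wild type in replicate 2. Within replicate 2 the interaction thus varied over probe sets more than either response did, and within replicate 1 less than either.

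**Figure D1:**
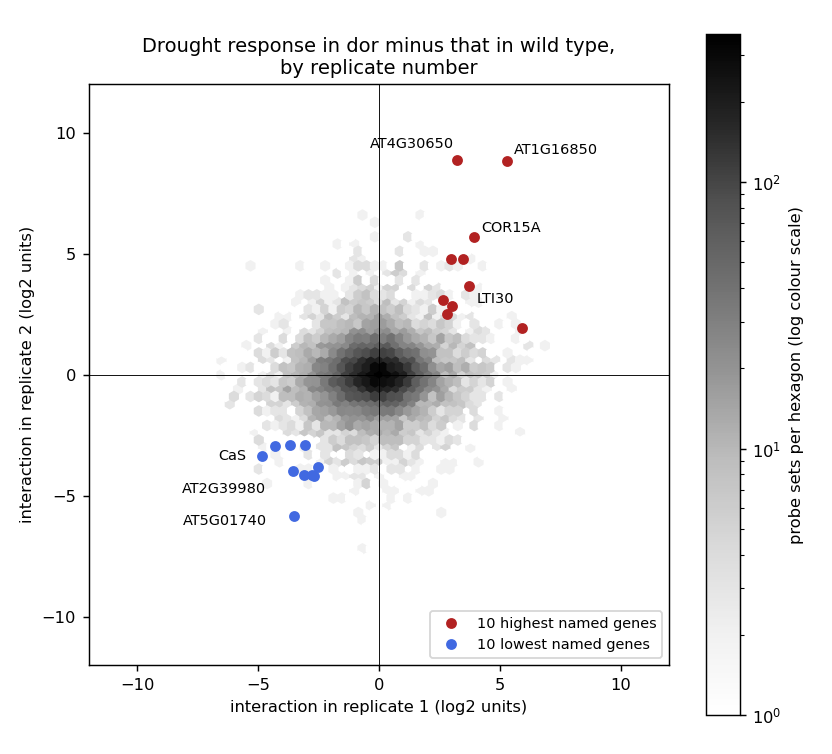
Interaction of each tested probe set in replicate 1 (horizontal axis, log2 units) and in replicate 2 (vertical axis, log2 units), as hexagons shaded by the number of probe sets on a log colour scale, with the 10 highest and 10 lowest named genes as points. The cloud has no visible slope (r = 0.051), and AT1G16850 lies at 5.28 and 8.82 at its upper right edge.

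On group means the median interaction was -0.01, and 49.5% of probe sets were positive. Both dor responses lay above both wild type responses in 1582 probe sets (10.2%) and below both in 1705 (11%). Responses of opposite direction were uncommon. In 299 probe sets (1.93%) both dor responses were positive and both wild type responses negative, and in 338 (2.18%) the reverse held.

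Probe sets with a large drought response tended to have an interaction of the same direction, that is, a larger response in dor. To read this without sharing arrays, probe sets were chosen in 1 replicate by their drought response averaged over genotypes, and their interaction was read in the other. The 2306 probe sets with a mean response above 2 in replicate 1 had a median interaction of 0.13 in replicate 2, and 56.3% were positive, against a median of -0.01 and 49.7% over all tested probe sets. Their median response in replicate 2 was 0.63 in dor and 0.43 in wild type. The 560 chosen in replicate 2 had a median interaction of 0.89 in replicate 1, and 66.3% were positive. Over all tested probe sets the median in replicate 1 was -0.05, with 48.4% positive. The median responses of the 560 in replicate 1 were 2.67 in dor and 1.79 in wild type. Among probe sets lowered by drought the direction was turned. The 1855 with a mean response below -2 in replicate 1 had a median interaction of -0.24 in replicate 2, and 40.7% were positive. The 478 chosen in replicate 2 had a median of -1.17 in replicate 1, with median responses of -3.68 in dor and -2.01 in wild type and 30.8% positive. All 4 readings thus showed the wider response in dor, with the larger difference in replicate 1. The readings were repeated with signals below the filter percentile of their array raised to it. Probe sets above 2 in replicate 1 then had a median of 0.14 in replicate 2, with 57.0% positive. This was close to the 0.06 and 53.5% over all tested probe sets. Those below -2 in replicate 1 had -0.20 in replicate 2. Those chosen in replicate 2 had 1.20 above 2 and -1.09 below -2. The interactions of the 5′ to 3′ ratios are given above, and their part in the wider response of dor was not tested.

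**Figure D2:**
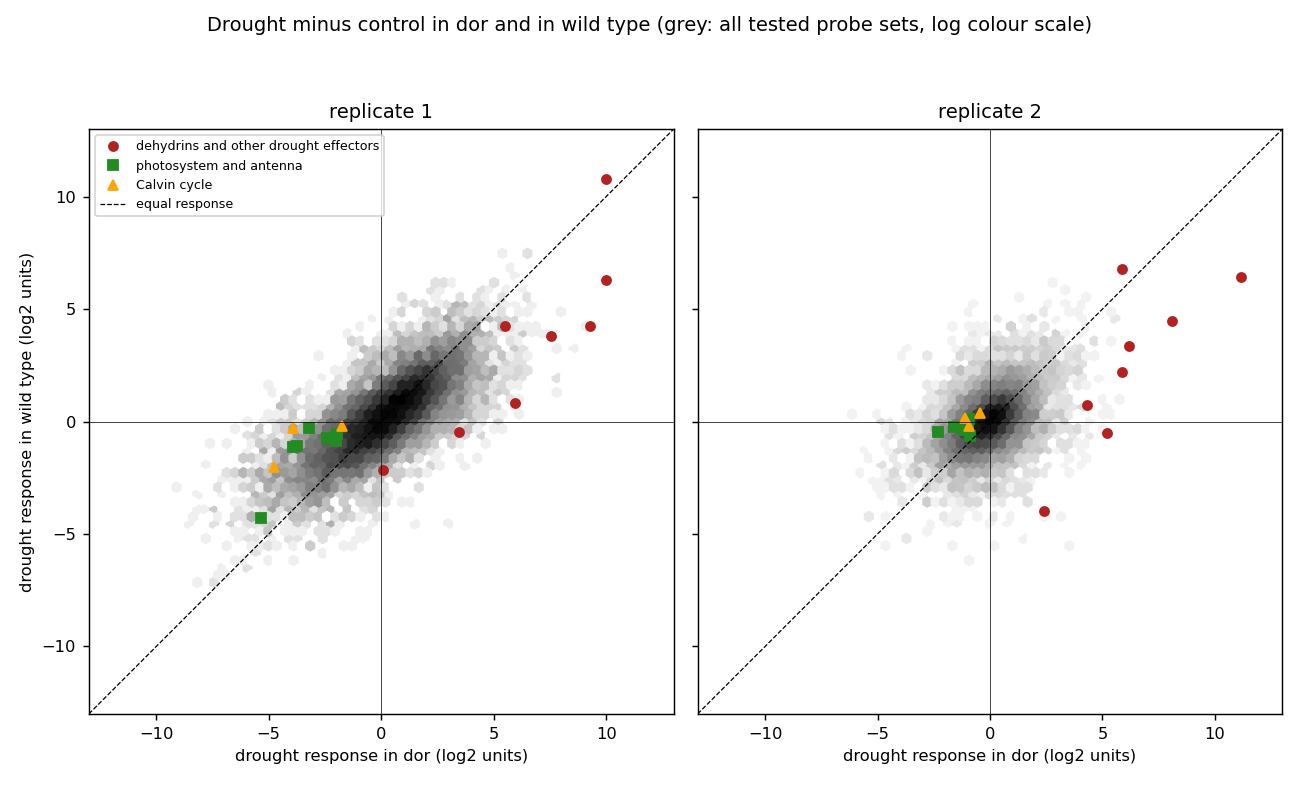
Drought response in dor (horizontal axis, log2 units) against that in wild type (vertical axis, log2 units) in each replicate, for all tested probe sets (grey hexagons, log colour scale) and for listed genes (coloured points). Points below the dashed line of equal response have a positive interaction. In replicate 1, 7 of the 8 effector genes lie below the line and all photosystem and Calvin cycle genes above it.

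The drought effector genes, which encode dehydrins, other LEA proteins and related protective products, had the largest positive interactions among the listed groups with at least 3 tested members. Of 24 listed genes 9 had a paired probe set and 8 were tested. All 8 had a positive interaction on group means and 6 in both replicates, where 24.6% of all tested probe sets were positive in both. Their median was 3.95 on group means, 3.72 in replicate 1 and 3.65 in replicate 2. The median over all tested probe sets was -0.01, with 49.5% positive. Their median response was 6.31 in dor and 3.41 in wild type. The responses of the genotypes did not overlap in 6 of the 8, all higher in dor, where the background is 10.2%. limma gave 4 of them an unadjusted p under 0.05, where the background in that direction is 0.509%, and called 0. LEA18 and AT3G17520, given below, reached the 40th percentile only on drought arrays. Both are in the counts of 6, and AT3G17520 is also among the 4. All 8 genes were read on the same arrays, so these counts are not of separate observations.

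LTI30 (AT3G50970), a dehydrin induced by cold, drought and ABA, read 45119 and 17566 in dor drought, 243 and 303 in dor control, 2819 and 3065 in wild type drought, and 200 and 671 in wild type control, with replicate 1 first here and below. The dor drought arrays were higher than both wild type drought arrays, and all 4 watered arrays were low. The interaction of LTI30 was 3.69 ± 1.03 (standard error of the limma fit), at 3.71 and 3.66 in the replicates (unadjusted p = 0.0066).

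COR15A (AT2G42540), which encodes a chloroplast LEA protein that stabilises membranes, read 35583 and 22806 in dor drought, 3274 and 615 in dor control, 1613 and 8004 in wild type drought, and 2229 and 11241 in wild type control. Signals in dor were higher under drought in both replicates, while in wild type drought and control differed by under 1 log2 unit in the other direction. The interaction was 4.81 ± 1.56, at 3.91 and 5.70 in the replicates. The related gene COR15B (AT2G42530) read 760 and 1970 in dor drought, 718 and 372 in dor control, 236 and 556 in wild type drought, and 1045 and 8674 in wild type control. For COR15B wild type control replicate 2 was the highest array, and its interaction of 4.30 ± 1.45 (2.23 and 6.37 in the replicates) came in large part from a negative wild type response.

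The dehydrin gene COR47 (AT1G20440) read 30059 and 22750 in dor drought, 663 and 1163 in dor control, 11597 and 9772 in wild type drought, and 606 and 5930 in wild type control. Both genotypes were higher under drought, and the wild type control of replicate 2 stood well above that of replicate 1. Its interaction was 2.41 ± 1.34, and 0.76 without wild type control replicate 2. The same array was the highest wild type array for COR15A and COR15B. Without wild type control replicate 2 the median of the 8 effector genes was 2.80 with 7 positive, and over all 8 arrays left out in turn it lay between 2.78 and 5.00.

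Other members were near background in the watered plants. LEA18 (AT2G35300), a LEA gene, read 3461 and 300 in dor drought, 5.6 and 1.1 in dor control, 23.0 and 123 in wild type drought, and 1.2 and 5.6 in wild type control, with an interaction of 4.32 ± 2.45. AT3G17520 read 7590 and 4499 in dor drought, 7.4 and 2.0 in dor control, 249 and 1991 in wild type drought, and 3.2 and 22.9 in wild type control, with an interaction of 4.21 ± 1.81. For both, the dor drought array was the higher in each replicate, while the control signals carry little information on level. With signals under the 40th percentile of their array raised to it, the interactions were 3.56 for LEA18 and 3.03 for AT3G17520, and the median of the group was 3.30.

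The 2 effector genes whose replicates disagreed were LEA4-5 and HIS1-3. LEA4-5 (AT5G06760) read 9934 and 3728 in dor drought, 161 and 63.1 in dor control, 158 and 2110 in wild type drought, and 88.5 and 19.2 in wild type control. Its interaction was 5.11 in replicate 1 and -0.90 in replicate 2, or 0.90 in replicate 2 with low signals raised. HIS1-3 (AT2G18050), a linker histone gene induced by drought, read 8729 and 5668 in dor drought, 8.5 and 77.9 in dor control, 15020 and 3153 in wild type drought, and 8.6 and 305 in wild type control. Both genotypes gave strong drought signals of HIS1-3, and its interaction was -0.77 in replicate 1 and 2.81 in replicate 2.

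The 10 highest genes were ranked over the tested probe sets that stand for 1 gene by the smaller of their 2 replicate interactions, with low signals raised to the 40th percentile. Since this ranking used the interaction itself, the values are a description. The last of the 10 had a smaller replicate interaction of 2.48 and the next gene, AT5G50360, one of 2.33. COR15A and LTI30 were among the 10, and 6 of the others, such as AT1G16850, have only a locus name in the tables used here. Genotypes did not overlap in 8 of the 10 (background 10.2%), but a ranking on the smaller replicate interaction favours genes without overlap, so nothing is read from this count. Of the 10, 4 reached the 40th percentile on all arrays.

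AT1G16850 read 10724 and 2608 in dor drought, 52.6 and 3.1 in dor control, 422 and 782 in wild type drought, and 80.1 and 421 in wild type control. Its dor drought arrays were the highest of the 8 and its dor controls the lowest. The interaction was 7.05 ± 1.95, and 4.52 with low signals raised. AT1G68500 read 2143 and 2366 in dor drought, 218 and 45.6 in dor control, 187 and 508 in wild type drought, and 208 and 268 in wild type control, with an interaction of 4.12 ± 1.18. Here wild type hardly differed between drought and control, with responses of -0.16 and 0.92, against 3.30 and 5.70 in dor.

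SWEET4 (AT3G28007), which encodes a sugar transporter of the plasma membrane, had the same pattern. It read 1395 and 2160 in dor drought, 279 and 194 in dor control, 215 and 635 in wild type drought, and 345 and 413 in wild type control. Its replicate interactions were among the closest of the named genes, at 3.01 and 2.85, with 2.93 ± 0.94 on group means.

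EXLA1 (AT3G45970), an expansin-like gene, had dor and wild type responses of opposite direction. It read 1462 and 343 in dor drought, 559 and 59.0 in dor control, 236 and 52.5 in wild type drought, and 714 and 249 in wild type control, with an interaction of 3.88 ± 1.78. AT4G30650 read 1021 and 1357 in dor drought, 623 and 133 in dor control, 84.0 and 243 in wild type drought, and 476 and 11035 in wild type control. The last of these arrays, wild type control replicate 2, stood far above all others for AT4G30650, and without it the interaction of 6.04 ± 1.97 was 3.77.

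The remaining 3 were AT1G05340, AT4G20320 and AT1G07040, which were higher under drought in both genotypes and more so in dor. AT1G05340 read 42048 and 9534 in dor drought, 163 and 60.2 in dor control, 3736 and 1308 in wild type drought, and 90.9 and 70.8 in wild type control. Its dor responses were 8.01 and 7.31, against 5.36 and 4.21 in wild type, an interaction of 2.88 ± 1.25. The interactions of AT4G20320 and AT1G07040 were 3.93 ± 1.86 and 2.66 ± 1.65, and the responses of the genotypes overlapped for both. The interaction of AT4G20320 was 1.97 without dor control replicate 1 and that of AT1G07040 1.19 without wild type control replicate 2.

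**Figure D3:**
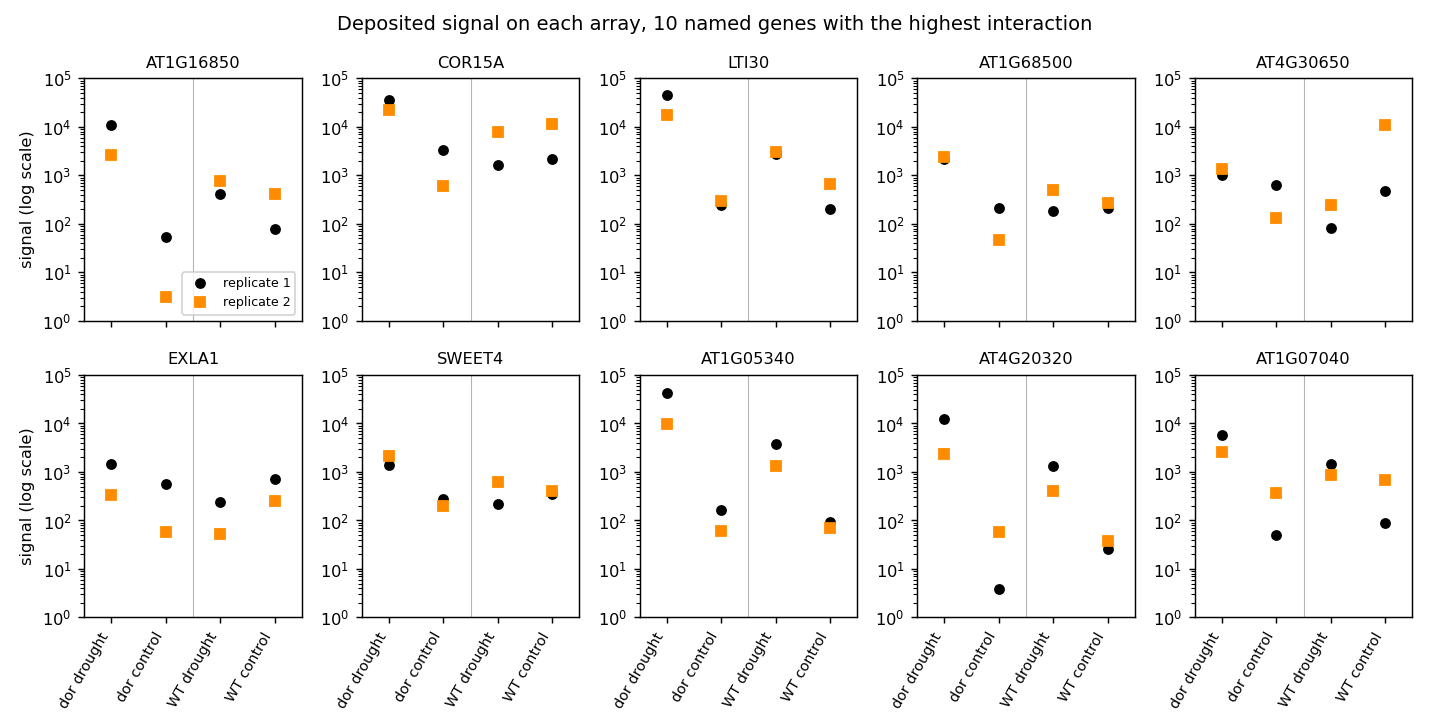
Deposited signal (log axis) of the 10 genes with the highest interaction on each of the 8 arrays, dor left and wild type right of the grey line, replicate 1 as circles and replicate 2 as squares. LTI30 stands at 45119 and 17566 in dor drought, against 2819 and 3065 in wild type drought, while AT4G30650 stands at 11035 in wild type control replicate 2.

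The 10 lowest genes, ranked in the same way, included 6 whose wild type response was positive and whose dor response was negative in both replicates, and 9 of the 10 did not overlap between genotypes (background 11%), which the ranking favours here too. The last of the 10 had a smaller replicate interaction of -2.54 and the next gene, AT5G55620, one of -2.53. All arrays reached the 40th percentile for 9 of the 10, so these values rest less on background than those of the highest genes.

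AT2G39980 read 471 and 676 in dor drought, 738 and 2115 in dor control, 2709 and 892 in wild type drought, and 362 and 176 in wild type control. Drought arrays were lower than controls in dor and higher than controls in wild type, in both replicates. The interaction was -3.77 ± 1.11, at -3.55 and -3.99 in the replicates. AT1G66180 read 184 and 412 in dor drought, 537 and 1331 in dor control, 3096 and 1971 in wild type drought, and 703 and 854 in wild type control, and AT3G22060 read 159 and 117 in dor drought, 624 and 636 in dor control, 945 and 392 in wild type drought, and 582 and 117 in wild type control. They followed the same order within each genotype, with interactions of -3.29 ± 0.96 and -3.43 ± 1.17.

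AT5G01740, AT1G21050 and AT2G04795 completed the 6, with interactions of -4.67 ± 1.31, -2.99 ± 1.36 and -3.46 ± 1.69. AT5G01740 read 55.0 and 106 in dor drought, 93.0 and 187 in dor control, 472 and 410 in wild type drought, and 70.2 and 12.8 in wild type control. Its wild type drought arrays were the highest of the 8. AT5G01740 reached the 40th percentile on 6 arrays. Its interaction was -3.18 with low signals raised and -3.44 without wild type control replicate 2. For AT2G04795 the wild type control read 3872 in replicate 1 and 243 in replicate 2, and without wild type control replicate 2 the interaction of AT2G04795 was -1.47. AT1G21050 had wild type controls of 1726 and 252 and an interaction of -1.60 without the same array.

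CaS (AT5G23060), a thylakoid protein gene that takes part in calcium signalling and stomatal closure, read 355 and 2409 in dor drought, 32337 and 10983 in dor control, 6958 and 9518 in wild type drought, and 22064 and 4282 in wild type control. The dor drought arrays were the lowest of the 8. Its responses were -6.51 and -2.19 in dor, against -1.66 and 1.15 in wild type, which gave an interaction of -4.09 ± 1.51.

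AT2G41090 read 770 and 1300 in dor drought, 25299 and 27834 in dor control, 4347 and 15777 in wild type drought, and 24546 and 23689 in wild type control. The 4 controls were close together, and both dor drought arrays lay below both wild type drought arrays. The interaction of AT2G41090 was -3.19 ± 0.93. AT4G12980 and AT5G20790 had interactions of -3.61 ± 1.79 and -3.61 ± 2.24, and the responses of the genotypes overlapped for AT4G12980. Without wild type control replicate 2 the interaction of AT4G12980 was -1.51, and without dor control replicate 2 that of AT5G20790 was -1.40.

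**Figure D4:**
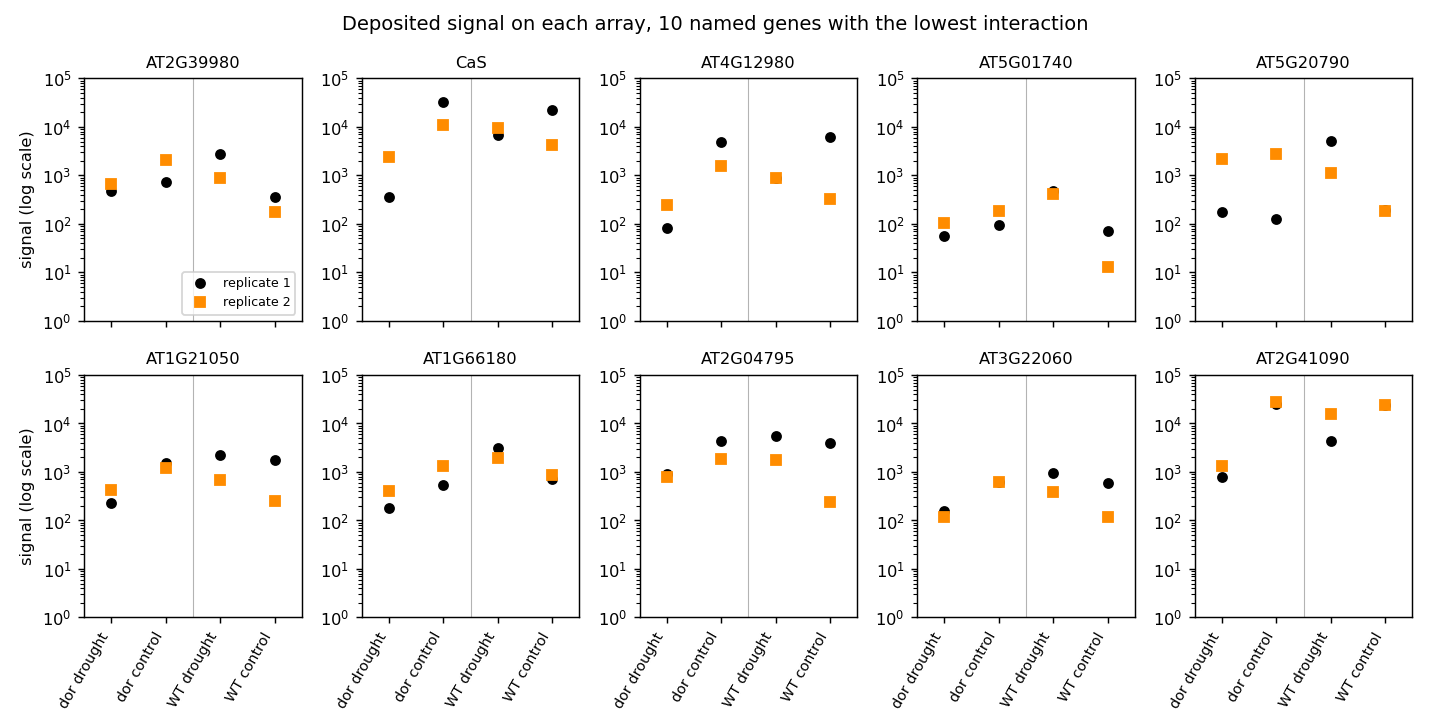
Deposited signal (log axis) of the 10 genes with the lowest interaction on each of the 8 arrays, dor left and wild type right of the grey line, replicate 1 as circles and replicate 2 as squares. CaS stands at 355 and 2409 in dor drought, against 6958 and 9518 in wild type drought.

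Nuclear genes of photosynthesis had negative interactions. Of 39 listed photosystem and antenna genes 7 had a probe set paired to 1 gene and all 7 were tested. All 7 were negative on group means and in each replicate, where 26.5% of all tested probe sets were negative in both. Their median interaction was -1.46, with -1.67 in replicate 1 and -0.75 in replicate 2. The median response was -2.08 in dor and -0.70 in wild type. Responses did not overlap in 6 of the 7, all lower in dor (background 11%), and limma gave 1 an unadjusted p under 0.05 (background 0.683%) and called 0.

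PSBY (AT1G67740), which encodes a small photosystem II subunit, had the lowest of these interactions. It read 2852 and 7166 in dor drought, 43788 and 21684 in dor control, 17495 and 15713 in wild type drought, and 38295 and 18884 in wild type control. Both dor drought arrays lay below all others, and the interaction was -2.07 ± 0.90 (unadjusted p = 0.0487 in limma). PSBW (AT2G30570), another photosystem II subunit gene, had the smallest difference, with 6410 and 8762 in dor drought, 26040 and 17474 in dor control, 15196 and 12072 in wild type drought, and 27476 and 15176 in wild type control. Its interaction was -0.92 ± 0.72.

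The photosystem I subunit genes PSAN and PSAE-1 had interactions of -1.71 ± 0.94 and -1.02 ± 0.72. The minor antenna genes LHCB4.1, LHCB4.2 and LHCB4.3 had -0.95 ± 0.74, -1.99 ± 0.96 and -1.46 ± 1.40. LHCB4.2 read 5716 and 14819 in dor drought, 53133 and 28473 in dor control, 33292 and 18783 in wild type drought, and 40708 and 17284 in wild type control, so that the wild type arrays differed little between conditions.

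The 3 tested Calvin cycle genes were negative in both replicates, with a median of -2.03 (-2.77 in replicate 1 and -0.80 in replicate 2). PRK (AT1G32060), which encodes phosphoribulokinase, read 1728 and 9087 in dor drought, 26540 and 17229 in dor control, 18067 and 14498 in wild type drought, and 22154 and 16774 in wild type control. Only dor drought replicate 1 stood far from the other 7 arrays, and the interaction of -2.18 ± 1.06 was -0.98 without it. SBPASE, for a bisphosphatase of the cycle, and RCA had -2.03 ± 1.30 and -1.17 ± 0.82. Dor drought replicate 1 was the lowest array for all 7 photosystem genes and all 3 Calvin cycle genes. Without dor drought replicate 1 the median of the photosystem genes was -0.86 and that of the Calvin cycle genes -0.62, with every member still negative. Without wild type control replicate 2 the photosystem median was -0.73.

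Genes encoded in the plastid genome mostly had negative interactions too, of smaller size. Their list was taken from the chromosome column of the gene table, and 69 were tested. Of these, 65 were negative on group means and 51 in both replicates (background 26.5%), and 38 did not overlap, all lower in dor (background 11%). The median interaction was -0.81, with -1.18 in replicate 1 and -0.35 in replicate 2. The median response was -0.83 in dor and -0.02 in wild type. All 69 were read on the same arrays, so these counts are not of separate observations. Some differed widely between replicates, such as psaA at 542 and 18030 in dor control and 234 and 9221 in wild type control. limma gave 1 of the 69 an unadjusted p under 0.05, where the background in that direction is 0.683%, and called 0.

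By complex, the lowest median was that of the ndh genes for the NADH dehydrogenase-like complex, at -1.27 over 10 genes with 9 negative. The psb genes of photosystem II had a median of -1.06 over 15 genes with 14 negative, the psa genes of photosystem I -0.69 over 5 with 5 negative, and the atp genes of ATP synthase -0.69 over 6 with 6 negative. Genes for plastid ribosomal proteins and RNA polymerase had -0.70 over 19 with 18 negative. The pet genes of the cytochrome complex had -0.30 over 6 with 5 negative, and their replicates differed in sign at -0.77 and 0.24.

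The rpl36 gene, for a ribosomal protein, read 571 and 354 in dor drought, 1204 and 1103 in dor control, 2944 and 1595 in wild type drought, and 745 and 1479 in wild type control. Its responses were negative in dor and positive in wild type in both replicates, and its interaction of -2.40 ± 0.86 had the smallest unadjusted p of the plastid genes (0.0227 in limma). The ndhD gene read 8175 and 8420 in dor drought, 16223 and 16138 in dor control, 13002 and 12987 in wild type drought, and 14611 and 12472 in wild type control. The replicates of ndhD were close together in all groups, dor drought was the lowest, and the interaction was -0.91 ± 0.60. The psbA gene, for the reaction centre protein D1, read 8212 and 20212 in dor drought, 29263 and 18814 in dor control, 12337 and 16418 in wild type drought, and 9670 and 11463 in wild type control, with an interaction of -1.30 ± 0.79. Here the replicates of dor drought were further apart than the groups. Without dor drought replicate 1 the median of the plastid genes was -0.26 with 48 of 69 negative, and without dor control replicate 2 it was -0.55 with 46 negative.

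**Figure D5:**
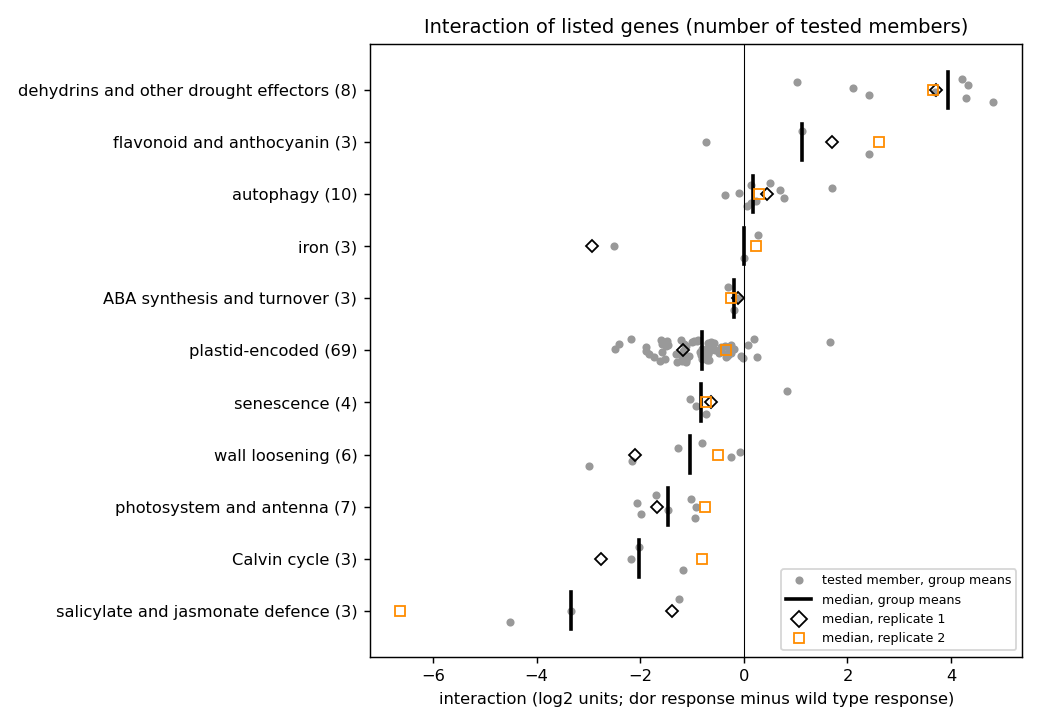
Interaction (horizontal axis, log2 units) of the tested members of each list with at least 3 of them (grey points), with the median on group means (bar), in replicate 1 (diamond) and in replicate 2 (square). The effector genes lie at a median of 3.95 and the photosystem, Calvin cycle and plastid genes at -1.46, -2.03 and -0.81.

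Genes of ABA turnover had interactions near 0 on group means, all 3 of them negative. UGT71B6 and UGT71C5, which encode glucosyltransferases that inactivate ABA, and BGLU33, for a glucosidase that releases it, were the 3 tested of 18 listed. UGT71B6 (AT3G21780) read 838 and 202 in dor drought, 19.4 and 74.8 in dor control, 484 and 120 in wild type drought, and 10.3 and 37.4 in wild type control. Both genotypes were higher under drought by like amounts, 5.43 and 1.43 in dor and 5.55 and 1.68 in wild type, and the interaction was -0.19 ± 1.64. None of the UGT71B6 controls reached the filter percentile, so these amounts rest on background values. With low signals raised, its interaction was 0.68 in replicate 1 and 0.82 in replicate 2. The dor drought array was the higher drought array in each replicate. UGT71C5 and BGLU33 had interactions of -0.11 ± 1.07 and -0.32 ± 1.36. Responses did not overlap for BGLU33, at -0.74 and -1.07 in dor and -0.65 and -0.53 in wild type (1 of 3, lower in dor, background 11%). These standard errors leave room for differences of several-fold in either direction. The ABA synthesis gene NCED3 and the genes of ABA perception have no probe set paired to them in the table used and were not analysed here. STZ, a zinc finger repressor of stress responses and the 1 tested drought transcription factor, had 0.21 ± 1.31, and AT5G38710, the 1 tested member of the proline and galactinol list, 2.16 ± 1.09. The guard cell genes FMA, a transcription factor of the lineage, and CHX20, an ion exchanger, had -0.20 ± 1.01 and -0.27 ± 0.73.

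Autophagy genes, members of the ATG8 family and ATG3, had small interactions on group means. Of 10 tested, 8 were positive and 7 in both replicates (background 24.6%), with a median of 0.18. ATG8H (AT3G06420) was the highest, with 3411 and 666 in dor drought, 272 and 228 in dor control, 551 and 368 in wild type drought, and 215 and 269 in wild type control. Its dor drought arrays were the highest of the 8 and its interaction was 1.69 ± 1.11, or 0.51 without dor drought replicate 1. ATG8E was the lowest, at -0.36 ± 1.57. The median depended on single arrays. Without wild type drought replicate 2 it was 0.0041 and without dor drought replicate 1 it was 0.0089, each with 5 positive and 5 negative. Without wild type drought replicate 1 it was 0.66 and without dor drought replicate 2 it was 0.60, each with all 10 positive.

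Wall loosening genes, 5 expansins and XTH33, a wall-modifying enzyme gene, were all negative with a median of -1.04. Over all tested probe sets 49.5% were positive. In both replicates only 3 of the 6 were negative (background 26.5%). Of these, XTH33 reached the 40th percentile on 2 arrays and had -0.43 and 0.14 in the replicates with low signals raised. EXPA4 (AT2G39700) had the lowest interaction, -2.98 ± 2.13, which was -0.31 without dor drought replicate 1, where it read 7.7, and -1.48 with low signals raised. The highest was EXPA15, at -0.07 ± 0.91. EXPA8 read 48.2 and 8.2 in dor drought, 2665 and 849 in dor control, 182 and 42.7 in wild type drought, and 1509 and 1495 in wild type control, with an interaction of -2.15 ± 1.48. Drought arrays of EXPA8 lay below the controls in both genotypes. With low signals raised its interaction was -0.76, with 0.88 in replicate 2, and the median of the group was -0.51. Leaving dor control replicate 2 out gave the group a median of -2.34, and leaving wild type drought replicate 1 out gave -0.21, the lowest and highest over the 8 arrays. Leaving wild type control replicate 2 out gave -0.73, with 3 of the 6 positive.

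The 3 tested defence genes were negative in both replicates (background 26.5%) and did not overlap, lower in dor (background 11%). The sizes differed widely between replicates. PDF1.2 (AT5G44420), a defensin gene induced by jasmonate and ethylene, read 74.5 and 127 in dor drought, 7140 and 14082 in dor control, 283 and 10887 in wild type drought, and 10338 and 6091 in wild type control. Both dor drought arrays and wild type drought replicate 1 were low, and wild type drought replicate 2 was as high as the controls. The interaction was -1.39 in replicate 1 and -7.64 in replicate 2, or -4.51 ± 2.01 on group means and -1.88 without wild type drought replicate 2. PDF1.2b, whose probe set may also bind related defensin transcripts, had -3.34 ± 1.78 (-0.02 and -6.65 in the replicates). The thionin gene THI2.1 had -1.25 ± 1.66 (-2.45 and -0.05 in the replicates).

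The senescence genes SAG29, SAG101 and WRKY53 had -0.73 ± 1.56, -0.92 ± 1.35 and -1.03 ± 1.56, and WRKY6 0.83 ± 1.24. SAG29 read 1742 and 5630 in dor drought, 17.2 and 10.6 in dor control, 591 and 6234 in wild type drought, and 5.5 and 4.5 in wild type control, so that both genotypes were far above their controls. With low signals raised, the interaction of SAG29 was 0.69 and the median of the 4 genes was 0.08, against -0.83 without that step. For anthocyanin synthesis, DFR read 53.8 and 6822 in dor drought, 16.6 and 805 in dor control, 43.9 and 56.6 in wild type drought, and 63.3 and 41.0 in wild type control. The arrays of dor replicate 2 were the only ones with a strong signal of DFR, and the interaction was 2.42 ± 3.22. UF3GT, an anthocyanin glycosyltransferase gene, had -4.45 in replicate 1 and 2.97 in replicate 2, with a standard error of 4.15, and AT4G14090 had 1.13 ± 3.22.

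GI (AT1G22770), the circadian gene GIGANTEA, whose transcript cycles through the day, read 141 and 1754 in dor drought, 128 and 193 in dor control, 63.0 and 738 in wild type drought, and 95.0 and 1747 in wild type control. Its signal was high on 3 arrays of replicate 2 and low on the other 5, and the interaction was 0.74 in replicate 1 and 4.43 in replicate 2. Wild type control replicate 2 is thus high for GI as it is for COR15A, COR15B, COR47 and AT4G30650.

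The iron genes PYE and BHLH101, both transcription factors of iron deficiency, and AT1G47400 had 0.28 ± 0.83, 0.01 ± 2.94 and -2.51 ± 1.63. With low signals raised that of AT1G47400 was -0.53. BCAT4, for an enzyme of methionine chain elongation in glucosinolate synthesis, had -1.05 ± 1.71, and AT2G31790 of the same list -1.90 ± 1.84. The heat shock list had 2 tested members, AT5G37670 with 0.39 ± 1.02 and AT5G51440 with -4.37 ± 3.07. AT5G51440 reached the 40th percentile on 2 arrays, and with low signals raised its interaction was -0.76. No member of the lipid transfer or aquaporin lists had a tested probe set paired to 1 gene, and no mitochondrial genes were analysed here.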

How the data were processed

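The deposited values are 1 linear intensity (signal) for each probe set and array, which the authors computed in GCOS by MAS5, per the submitters' processing notes, with versions not given in the sources used here. On each array the mean intensity, after trimming 2% at each end, was 500. All 8 arrays and their columns were mapped, with 0 columns left over. The number of arrays, 2 a group, limits the precision.

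Signals under 1 (399 values) were set to 1, log2 was taken and the authors' scaling was kept. The 64 control probe sets of Affymetrix were excluded, and a probe set was tested if it reached the 40th percentile of the array on at least 2 arrays. limma 3.58.1 in R 4.3.3 fitted genotype, drought and their interaction (lmFit, then eBayes with an intensity trend). The interaction coefficient was tested two-sided, with Benjamini-Hochberg adjustment over 15523 probe sets at 0.05. An exact permutation test of the 4 drought responses cannot go below p = 0.333 and was not used. The pipeline was tested on simulated data.

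A probe table paired 13513 of the 22746 probe sets left after these controls with 1 gene, 503 with several and 8730 with none listed, and 13436 of the first matched the RefSeq gene table (TAIR10.1). Of the tested probe sets 8459 carried a gene. Where several probe sets stood for a gene, the lists took the probe set of highest mean. No genome coordinates are printed.

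The members, the 23 gene lists (401 loci, 129 tested) and the tests were chosen with earlier results of these data known. The rule for named genes took DOR and NCED3, called genes (there were 0), the 10 highest and 10 lowest by the smaller replicate interaction with low signals raised, the highest and lowest member of each list with at least 3 tested, and the tested ABA synthesis genes. Other list members were chosen after their values were seen. Alternatives were median centring, quantile normalization, the 10th percentile as an offset, raised low signals, a 60th percentile filter, no filter, no intensity trend, replicate blocks, the extraction wording as a block, drought response sizes of 1 and 3, and each array left out. Figures used Python 3.11.15, pandas 2.3.3 and matplotlib 3.10.9.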

Additional observations from a re-analysis of the deposited data

Results flagged for a closer look

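Among the named genes and the genes of the lists, 20 had dor responses of one sign and wild type responses of the other in both replicates. The limma test of the difference itself passed for none of them, and 299 of 15523 tested probe sets showed such signs with dor up and 338 with dor down. In dor the response was positive and in wild type negative for AT4G30650 (interaction 6.04), COR15A (4.81), COR15B (4.30), EXLA1 (3.88) and GI (2.58). In dor it was negative and in wild type positive for AT1G21050 (-2.99), AT1G66180 (-3.29), AT3G22060 (-3.43), AT2G04795 (-3.46), AT2G39980 (-3.77) and AT5G01740 (-4.67), and for 9 plastid genes, petB (-0.26), clpP (-0.29), atpB (-0.48), psbE (-0.81), rbcL (-0.85), psbC (-1.06), psbD (-1.73), ndhH (-2.18) and rpl36 (-2.40). Some wild type responses of the plastid genes were near 0, such as 0.078 and 0.006 for atpB and 0.027 and 0.055 for petB. The genes without a list entered through the ranking on the interaction itself. Wild type control replicate 2 was far above replicate 1 for AT4G30650, COR15A, COR15B and GI, as given above. The same array was far below replicate 1 for AT2G04795 (243 and 3872), AT1G21050 (252 and 1726), AT3G22060 (117 and 582) and AT5G01740 (12.8 and 70.2). The part of this array in these results was not tested beyond the values without it. Groups of 2 arrays allow no check for a single outlying array.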

How the results depend on the processing

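limma gave 0 calls in either direction in all 21 settings. The count at an unadjusted p under 0.05, 185 as reported, was 257 after quantile normalization, 204 with median centring, 190 with the offset, 177 with raised signals, 490 of 22746 without a filter, 128 of 11481 with the 60th percentile, 228 without the intensity trend and 150 with extraction wording as the block. With a replicate block it was 316, and with a replicate block within condition, within genotype, and as a random block within condition it was 885, 251 and 1079, with smallest adjusted p values of 0.856, 0.999976 and 0.358. Deviations of arrays with one replicate number correlated at 0.402 between dor and wild type drought and at 0.594 between dor and wild type control, and at -0.04 to 0.05 in the other 4 pairs of groups. Spread that the genotypes share within a condition and replicate number cancels in the interaction but stays in the residuals of the main fit. The standard errors and p-values of that fit may thus be too large. The labels do not say that the numbers pair samples. Leaving out 1 array gave 95 to 535, with a smallest adjusted p of 0.178 without wild type control replicate 1 and 0.231 without dor control replicate 1. Within-replicate values with an array left out were not run, since they need all 4 arrays.

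The correlation of the replicate interactions was 0.072 with raised signals, 0.0187 without a filter and 0.081 with the 60th percentile. The median interaction was 0.022, 0.030 and -0.042 in these settings, and -0.29 to 0.25 with 1 array left out. The settings for lists were chosen after seeing the data. The effector median was 4.01 after quantile normalization, 3.69 with the offset, 3.30 with raised signals and 2.78 to 5.00 with 1 array left out. Leaving out 1 array gave medians of -2.33 to -0.73 for the photosystem, -3.38 to -0.62 for the Calvin cycle and -1.52 to -0.26 for the plastid genes.

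Of 839 values for 42 named genes under alternatives, 800 kept their direction and 39 did not. None was past the threshold, and 28 genes never turned. The blocks, the filters and the intensity trend leave the fitted value of a gene unchanged, so they could not turn it. The 10 highest and 10 lowest genes were ranked by interactions of 1 sign in both replicates, which favours a kept direction. The count of 800 is therefore a description. UGT71C5 turned after quantile normalization (0.00134), UF3GT with the offset (0.0110) and with raised signals (1.88), and UGT71B6 with raised signals (0.75). With 1 array left out, the range was -0.97 to 0.74 for UGT71C5, -1.46 to 0.83 for BGLU33, -1.21 to 0.84 for UGT71B6, -1.55 to 3.60 for HIS1-3, -0.60 to 0.46 for EXPA15, -0.17 to 1.84 for WRKY6, -2.50 to 0.43 for WRKY53, -1.99 to 1.28 for ATG8E, -2.86 to 0.35 for THI2.1, -1.07 to 5.91 for DFR, -6.39 to 4.92 for UF3GT, -0.14 to 0.71 for PYE, -1.32 to 4.63 for ndhF and -7.01 to 2.04 for petG. The cause was not tested. With drought response sizes of 1 and 3 in place of 2, the median interactions read in the other replicate were 0.06 to 1.53 for probe sets above the size and -1.23 to -0.18 for those below its negative.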

Other observations

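Glutathione S-transferases of the tau class, enzymes that conjugate glutathione to toxic compounds, form a family picked after seeing its values. Of 7 tested GSTU genes 1 was positive on group means (background 49.5%) and 5 were negative in both replicates (background 26.5%). Their median interaction was -1.54 (-1.92 in replicate 1 and -1.66 in replicate 2). GSTU23 reached the 40th percentile on 4 arrays and GSTU28 on 2. With low signals raised, GSTU23 had 0.55 and -1.64 in the replicates and GSTU28 -0.14 and 0.14. GSTU27 (AT3G43800) read 215 and 262 in dor drought, 1605 and 1110 in dor control, 846 and 1071 in wild type drought, and 1190 and 1815 in wild type control. Its dor drought arrays were the lowest of the 8 and its interaction was -1.87 ± 0.77. GSTU18 (AT1G10360) read 164 and 625 in dor drought, 3015 and 1959 in dor control, 554 and 849 in wild type drought, and 2688 and 1318 in wild type control, with an interaction of -1.47 ± 1.07. GSTU26 was the positive member, at 0.05 ± 1.39, and had -0.64 with low signals raised.

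Of the probe sets with the smallest unadjusted p in limma, the lowest with a gene was that of AT5G39520, with 15559 and 6062 in dor drought, 20.0 and 16.6 in dor control, 2168 and 1617 in wild type drought, and 49.1 and 98.5 in wild type control. Its interaction was 4.31 ± 0.94, and 2.43 with raised signals. IQD22 (AT4G23060), of a family of calmodulin-binding proteins, read 8.4 and 10.7 in dor drought, 196 and 232 in dor control, 152 and 132 in wild type drought, and 198 and 238 in wild type control. Its interaction was -3.88 ± 0.94, and -0.90 with raised signals, since both dor drought signals lie under the 40th percentile of their arrays.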
